A study of Homo sapiens with 4 samples.

Results

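The genes described here are 42 genes of mitosis, among them the proliferation marker MKI67, in a human lymphoma cell line in which SOX11 was lowered. They were chosen by symbol: mitotic cyclins and kinases, kinetochore and spindle proteins, and regulators of anaphase and cytokinesis. All 42 were found among the 19775 genes that carry a single symbol on the array, and all 42 passed the signal filter that left 11938 genes for testing. Each gene is represented by its brightest probe set (highest in mean log2 signal over the arrays), and MKI67 also by each of its 4 probe sets.

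Z138 is an established line of human mantle cell lymphoma cells. This B-cell tumour commonly expresses SOX11, a transcription factor. Total RNA was measured on 4 Affymetrix U133 Plus 2.0 arrays, 1 per sample. The shSOX11 group holds 2 samples, Z138 cells stably transduced by lentivirus with short hairpin RNAs against SOX11 (shSOX11.1 and shSOX11.3). The shControl group holds 2 samples, Z138 cells carrying scrambled hairpins by the same route (shControl.1 and shControl.2). All samples are thus 1 cell line with a stably integrated hairpin, described by the submitters as stable clones, and each array stands for a different construct. Nothing in the labels says that separate cultures of a construct were made, so p-values reflect only how far these 4 samples differ. The spread within a group mixes differences between its constructs with technical variation, and the design cannot tell them apart. Bulk RNA cannot tell fewer cells in mitosis from less mitotic RNA per cell.

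Mitotic genes are transcribed late in the cell cycle, so that their products are abundant in G2 and M and low in G1. CDK1 with B-type cyclins drives entry into mitosis, the kinetochore ties chromosomes to the spindle, and the checkpoint proteins hold back the anaphase-promoting complex until every chromosome is attached. MKI67 encodes Ki-67, a protein that coats mitotic chromosomes and is used in pathology, in mantle cell lymphoma too, as a measure of the share of cycling cells. Many of these genes share a short promoter sequence, the cell cycle genes homology region (CHR), which is read by the DREAM, MuvB and FOXM1 complexes.

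The promoters of these genes are shown first because the shared letters are a common feature that the choice of genes did not use. RefSeq promoters (GRCh38.p14) were at hand for 35 of the 42 genes, without AURKA, BIRC5, BUB3, FOXM1, TPX2, TTK and UBE2C, and the 250 bases before each start were searched on both strands for TTTGAA, the core of the CHR, and for CCAAT, the box bound by NF-Y. TTTGAA was present before 21 of the 35 genes (60.0%), against 16.1% of all 27305 genes with a promoter in the same table. CCAAT was present before 29 of the 35 (82.9%), against 37.0% of all genes, and both were present before 19 (54.3%), against 6.86%. A gene with several listed starts counted as holding a sequence if any of its promoters did. These matches describe letters and do not mark sites in use. The 6 stretches below are the 120 bases before the start of 4 genes that were higher on the shSOX11 arrays (MKI67, TOP2A, ANLN and PRC1), 1 that differed little (CCNB2) and 1 that was lower (ESPL1), each printed 5′ to 3′ along the gene's strand. Capitals mark TTTGAA or CCAAT on either strand, so that the opposite strand reads TTCAAA or ATTGG.
MKI67: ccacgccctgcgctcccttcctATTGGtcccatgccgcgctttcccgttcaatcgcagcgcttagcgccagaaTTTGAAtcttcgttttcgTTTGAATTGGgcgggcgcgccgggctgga
TOP2A: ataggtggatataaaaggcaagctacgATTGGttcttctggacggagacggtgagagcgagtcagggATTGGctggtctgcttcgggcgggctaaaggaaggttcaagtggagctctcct
ANLN: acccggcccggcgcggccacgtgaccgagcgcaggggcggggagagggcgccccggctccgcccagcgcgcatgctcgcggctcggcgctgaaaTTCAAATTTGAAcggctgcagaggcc
PRC1: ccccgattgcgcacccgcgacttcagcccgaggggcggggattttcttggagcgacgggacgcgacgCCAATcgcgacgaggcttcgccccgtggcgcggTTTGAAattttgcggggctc
CCNB2: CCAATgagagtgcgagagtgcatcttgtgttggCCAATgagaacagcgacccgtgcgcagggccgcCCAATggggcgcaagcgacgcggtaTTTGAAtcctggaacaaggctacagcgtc
ESPL1: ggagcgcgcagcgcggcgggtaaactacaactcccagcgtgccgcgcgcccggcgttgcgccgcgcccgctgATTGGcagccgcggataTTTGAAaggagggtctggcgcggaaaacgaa
These stretches lie at chr10:128126424-128126543 (minus strand) for MKI67, chr17:40417897-40418016 (minus strand) for TOP2A, chr7:36389742-36389861 (plus strand) for ANLN, chr15:90994536-90994655 (minus strand) for PRC1, chr15:59105026-59105145 (plus strand) for CCNB2 and chr12:53268179-53268298 (plus strand) for ESPL1. MKI67 holds TTTGAA at 2 places, starting 47 and 29 bases before the start, and the second overlaps a reverse CCAAT. The ANLN stretch holds TTTGAA on both strands side by side, and in TOP2A the nearest TTTGAA lies outside the stretch, 151 bases before the start. The letters did not divide the genes by direction. The median log2 change (shSOX11 minus shControl) was 0.12 over the 21 genes with TTTGAA, which ran from -0.34 for ESPL1 to 0.70 for MKI67, and 0.03 over the 14 without it.

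On the arrays as a whole, values of the authors' MAS5 signal were on 1 scale, with a 2% trimmed mean of 150.02 on each array. SOX11 itself, at its brightest probe set, was at 335 and 339 on the shSOX11 arrays and at 797 and 787 on the shControl arrays. SOX11 thus had a log2 change of -1.23 (SE 0.15, limma adjusted p = 0.131 over 11938 genes), and its other probe sets were lower too, at -1.47 and -1.14. Of 7 B-cell and lymphoma markers 6 were above the signal threshold of 24.831 on all 4 arrays (MS4A1, CD79A, CD79B, PAX5, CCND1 and SOX11), while CD22 was below it on shSOX11.3, with signals of 39.8 for shSOX11.1 and 4.94 for shSOX11.3 and control signals of 48.2 and 67.0. The summed signal of the 7 was 18410 and 18707 on the shSOX11 arrays, against 21996 and 21948 on the shControl arrays, and PAX5 was at 646 and 1450 against 1845 and 1666. Of 9 T and NK cell markers 3 were above it on all 4 arrays (CD3G, CD247 and LCK), and the summed signal of the 9 was 426 and 407 on the shSOX11 arrays, against 604 and 629 on the shControl arrays. Of 7 myeloid markers 0 were above it on all 4, with sums of 123 and 108 against 117 and 87.1. For beta-actin, whose control probe sets read both ends of the transcript, the 3′/5′ ratio of signals was 7.29 and 5.31 on the shSOX11 arrays, against 11.6 on both shControl arrays. The same ratio for GAPDH was 1.01 and 1.03 against 0.978 and 1.06, with overlap between the groups. The part of these ratios or of the marker sums in the results below was not tested.

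The first comparison asked whether lowering SOX11 altered the mitotic programme. The genes did not move as a block. A set of 7 genes was higher at an unadjusted limma p under 0.05 (MKI67, TOP2A, ANLN, PRC1, ECT2, CENPE and ASPM) and a set of 4 was lower (CDC25B, UBE2C, AURKB and ESPL1). The core mitotic engine of CDK1, CCNB1 and CCNB2 had a mean log2 change within 0.12 of the control level at the brightest probe set. For each of these genes shSOX11.1 was above both controls and shSOX11.3 below both. The 42 genes had a median log2 change of 0.05, with quartiles of -0.12 and 0.18, against a median of -0.06 over all genes tested. Of the 42 genes 25 had a higher and 17 a lower mean on the shSOX11 arrays, so 40.5% were lower, where 58.1% of all genes were.

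None of the 42 passed limma's Benjamini-Hochberg adjusted p of 0.05 over the 11938 genes, where percent called was 0. Their adjusted p ran from 0.315 for MKI67 to 0.997 for KIF11. At an unadjusted limma p under 0.05 there were 11 of 42 (26.2%), against 8.38% of all genes tested. The 7 higher genes are 16.7% of the 42, against 3.4% of all genes, and the 4 lower genes are 9.52%, against 4.98%. Among the 2892 genes at least as bright as the lower quartile of these genes (a log2 signal of 9.37), 4.15% were higher and 4.84% lower by the same rule, a background added after the values were seen. The share depended on the variance model. Limma without the intensity trend left 3 of the 42 under 0.05 (7.14%, against 7.46% of all genes). The share also depended on the control arrays: without either of them 1 of the 42 was left (2.38%), against 2.84% of all genes without shControl.1 and 3.05% without shControl.2. With each array centred on its median, 8 were higher and 2 lower. In either direction these were 23.8% of the 42, against 8.87% of all genes, and no share of all genes by direction is given.

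**Figure D1:**
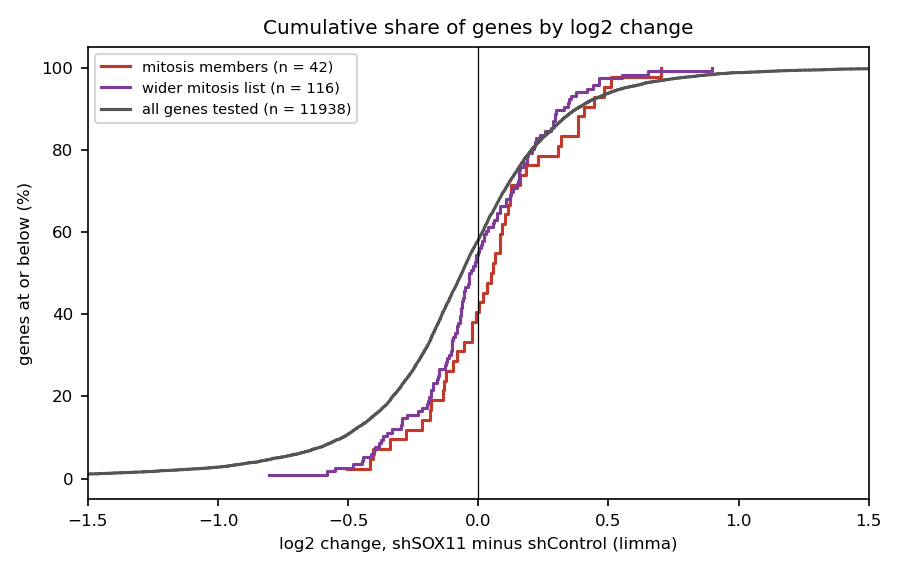
Cumulative share of genes (%) against the log2 change in signal, shSOX11 minus shControl, for the 42 mitosis genes, 116 other mitosis genes and all 11938 genes tested. The curve of the 42 genes crosses 0 at 40.5% of its genes and that of all genes at 58.1%, while both ends of the 42-gene curve stay within -0.51 and 0.70.

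The groups did not overlap, with both shSOX11 arrays on the same side of both shControl arrays, for 15 higher and 6 lower genes of the 42 (35.7% and 14.3%). Over all genes tested these shares were 16.2% and 24.9%, and among the 2892 bright genes 17.8% and 25.4%. By the stricter rule of a 1.5-fold difference between every shSOX11 array and every shControl array, only MKI67 of the 42 qualified, against 0.762% of all genes higher and 1.93% lower by that rule. With 2 arrays a group, the smallest two-sided p of an exact permutation test is 0.333, so no gene can be called from its own values alone.

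MKI67 had the widest difference among the 42 genes at the brightest probe sets. ANLN differed more at its second probe set (log2 change 1.16). With a gene's probe sets averaged, ANLN was at 0.82 and MKI67 at 0.50. At the brightest MKI67 probe set, 212022_s_at, signal was 1571 and 1574 on the shSOX11 arrays, against 970.2 and 962 on the shControl arrays. The groups were far apart and each pair of arrays was nearly equal. The log2 change was 0.70 (SE 0.14, 95% interval 0.38 to 1.02), 1.63-fold higher, with an unadjusted limma p of 0.00086, which ranks 32 among all genes, and a limma adjusted p of 0.315.

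The hairpins parted at 2 of the other 3 MKI67 probe sets. At 212021_s_at signal was 1110.3 and 942 on the shSOX11 arrays, against 579.6 and 552 on the shControl arrays, again without overlap (log2 change 0.85, limma adjusted p = 0.348 over 28202 probe sets). At 212023_s_at it was 915 on shSOX11.1 but 490.0 on shSOX11.3, against 544 and 543 on the shControl arrays. At 212020_s_at shSOX11.1 had 589 and shSOX11.3 had 409, with controls at 441 and 450.3. On shSOX11.1 all 4 probe sets were therefore above both shControl arrays, by 0.97, 0.75, 0.70 and 0.40 on the log2 scale against the control mean. On shSOX11.3 a pair was above, by 0.74 and 0.70, and the other pair was below, at -0.12 and -0.15. Where these probe sets lie along the MKI67 transcript was not used here. The 3′/5′ ratio of beta-actin was lowest on shSOX11.3, that of GAPDH there lay between the control values, and the part of either in the disagreement was not tested.

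**Figure D2:**
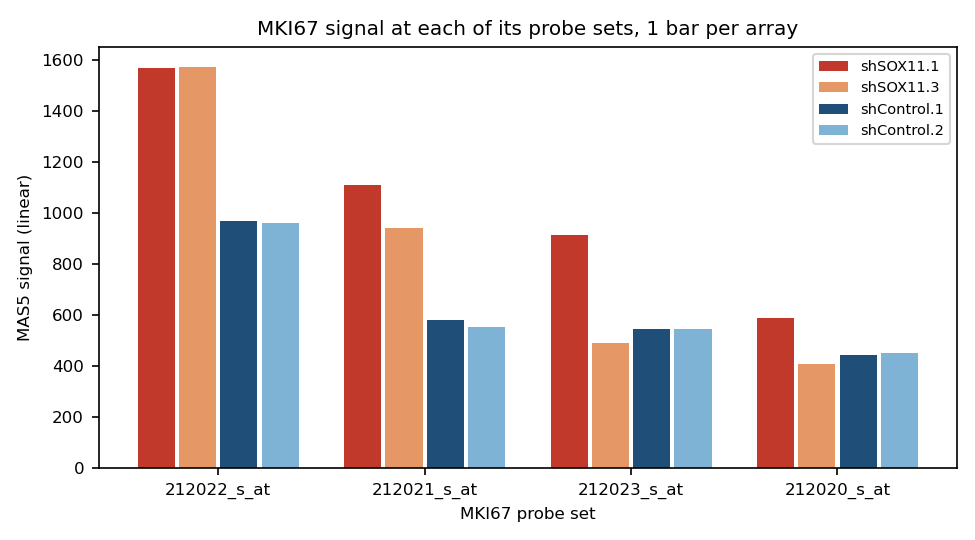
MAS5 signal (linear, from 0) of MKI67 at each of its 4 probe sets, 1 bar per array. At 212022_s_at and 212021_s_at both shSOX11 bars stand above both shControl bars, while at 212023_s_at and 212020_s_at the shSOX11.3 bar is the lowest of the 4.

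TOP2A encodes topoisomerase II alpha, which untangles sister chromatids and, like Ki-67, is read as a marker of proliferation. Its signal was 3512 and 4302 on the shSOX11 arrays, against 2567 and 2910.4 on the shControl arrays. Both shSOX11 arrays were above both controls, with a log2 change of 0.51 (SE 0.16, limma adjusted p = 0.46). Its other probe sets were also higher, with log2 changes of 0.20 and 0.50, and none of the 3 showed overlap between the groups.

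The genes of cytokinesis, the division of the cell body, included ANLN, PRC1 and ECT2: 4 of 5 had a higher mean with no overlap between groups, where 16.2% of all genes did, and 3 were higher at an unadjusted limma p under 0.05, where 3.4% of all genes were. These shares of all genes, with 24.9% and 4.98% for lower genes, are the background to the counts of each role below, which rest on few genes. ANLN encodes anillin, the scaffold of the contractile ring. It was at 1425 and 1592 on the shSOX11 arrays and at 1060.2 and 1093 on the shControl arrays (log2 change 0.48, SE 0.14, limma adjusted p = 0.446). Its second probe set differed more, at 350.0 and 653 against 216 and 211, a log2 change of 1.16, the largest of any MKI67, TOP2A or ANLN probe set. Here the level on shSOX11.3 was well above that on shSOX11.1.

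PRC1, which bundles the microtubules of the central spindle, was at 1198 and 1283 on the shSOX11 arrays and at 881 and 995 on the shControl arrays. This is a log2 change of 0.41 (SE 0.15, limma adjusted p = 0.522). ECT2, the exchange factor that activates RhoA at the cleavage plane, was at 1045 and 1069.9 on the shSOX11 arrays and at 772 and 849 on the shControl arrays (0.38, SE 0.15). In both genes the lower shSOX11 array exceeded the higher control array. KIF23, a kinesin of the centralspindlin complex, was at 532 and 589 against 429.6 and 477, with a log2 change of 0.31 and a limma adjusted p of 0.62. Its second, dimmer probe set went the other way, at -0.22, with overlap between the groups. KIF20A, the kinesin that carries the passenger complex to the midzone, broke the pattern, at 711 on shSOX11.1 and 497 on shSOX11.3, with controls at 597 and 613. Its 2 shSOX11 values stood on opposite sides of the controls.

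Regulators of mitotic entry did not move together: 5 of 9 had a higher and 4 a lower mean, and 1 had an unadjusted limma p under 0.05. That gene was CDC25B, the phosphatase that starts CDK1 activation at the G2/M boundary. It was at 446 and 395 on the shSOX11 arrays and at 563 and 631 on the shControl arrays (log2 change -0.51, SE 0.16, limma adjusted p = 0.474). It had the lowest log2 change of the 42 genes at the brightest probe sets, and the groups did not overlap. CDC25C, its relative, went the other way, at 224 and 205 against 202 and 177, by a log2 change of 0.18 (SE 0.19, limma adjusted p = 0.783).

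CDK1, the mitotic kinase, was at 4096 on shSOX11.1 and 3499 on shSOX11.3, with controls at 3651 and 3501 on the shControl arrays. The log2 change was 0.08 with a 95% interval of -0.24 to 0.41. Its cyclin partners were similar: CCNB1 had a log2 change of 0.06 (95% interval -0.32 to 0.45), CCNB2 of 0.12 (-0.22 to 0.46) and CCNA2 of 0.09 (-0.22 to 0.40). For CDK1, CCNB1 and CCNB2 the shSOX11.1 array was above both controls and the shSOX11.3 array was below both. For CCNA2 both shSOX11 arrays were above both controls. All 4 intervals reach above 0.32, the log2 change of ASPM given below.

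Other probe sets of CCNA2 and CDK1 gave larger differences. CCNA2, the S and G2 cyclin, was at 728 and 820.0 on the shSOX11 arrays and at 536 and 554 on the shControl arrays at 203418_at, a log2 change of 0.50 (limma adjusted p = 0.522 over 28202 probe sets). CDK1 was at 1908 and 2042 against 1498 and 1514 at 210559_s_at (0.39, limma adjusted p = 0.554), and at 1372 and 1349.6 against 1092 and 1072 at 203214_x_at (0.33). At these 3 probe sets the groups did not overlap, and the size of the difference in both genes depended on the probe set.

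FOXM1, the transcription factor of late cell cycle genes, was at 526 on shSOX11.1 and 436 on shSOX11.3, with controls at 498 and 515, with a log2 change of -0.08 (95% interval -0.46 to 0.30). AURKA, the centrosomal kinase, was the gene on which the hairpins differed most within this group. It was at 844 on shSOX11.1 and 1355 on shSOX11.3, with controls at 1403 and 1197 on the shControl arrays. PLK1, the polo-like kinase of mitotic entry, was dim, at 64.3 and 66.6 against 93.5 and 59.3, and its log2 change of -0.19 had an SE of 0.31. Its arrays overlapped, and a dim MAS5 signal carries more error than a bright one.

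In anaphase control, UBE2C and ESPL1 were lower at an unadjusted limma p under 0.05. UBE2C, the E2 enzyme that works with the anaphase-promoting complex, was at 1368 and 1208 on the shSOX11 arrays and at 1726 and 1679 on the shControl arrays (log2 change -0.41, SE 0.14, limma adjusted p = 0.519). ESPL1, separase, which cuts cohesin to release sister chromatids, was at 883 and 810.3 against 1064 and 1076 (-0.34, SE 0.15, limma adjusted p = 0.587). Its second probe set repeated the direction, at 576 and 536 against 834 and 853 (-0.60). The groups did not overlap at any of these probe sets.

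PTTG1, securin, the inhibitor of separase, was at 4182 on shSOX11.1 and 3019.8 on shSOX11.3, with controls at 3620.3 and 3264. CDC20, the activator of the anaphase-promoting complex, was at 958 and 739 against 843 and 867. In both genes shSOX11.1 was the highest array and shSOX11.3 the lowest, with log2 changes of 0.05 and -0.02 in the mean.

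The chromosomal passenger complex, which corrects faulty attachments, held members on both sides, with 2 higher and 2 lower means. AURKB, its kinase, was at 584 and 519 on the shSOX11 arrays and at 774 and 698 on the shControl arrays (log2 change -0.42, SE 0.16, limma adjusted p = 0.544), without overlap. Its second probe set differed less, at -0.07. BIRC5, survivin, was at 1855 and 1997 against 2113 and 1678 at its brightest probe set. Its other probe sets disagreed, with log2 changes of 0.50, -0.37 and -0.52, so no direction can be given for it. CDCA8, borealin, had a log2 change of -0.05. INCENP, the scaffold, was dim, at 64.7 and 92.4 against 45.9 and 70.2 (0.45, SE 0.34).

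Among 6 kinetochore genes 4 had a higher mean and 1 an unadjusted limma p under 0.05. CENPE, a kinesin that carries chromosomes to the metaphase plate, was at 905 and 801 on the shSOX11 arrays and at 671 and 637 on the shControl arrays (log2 change 0.38, SE 0.15, limma adjusted p = 0.561). NDC80, which binds microtubule ends, was also free of overlap, at 766 and 807 against 699.6 and 709 (0.16, SE 0.15), as was CENPA, the centromeric histone H3 variant, at 259 and 249.9 against 236 and 231 (0.13, SE 0.17). NUF2 and SPC25, partners of NDC80 in the same complex, overlapped between groups, with log2 changes of -0.13 and -0.22. CENPF, a large kinetochore protein of late G2, stood at 3155 on shSOX11.1 and 2397 on shSOX11.3, with the controls at 2842 and 2594 between them.

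The 5 spindle checkpoint genes had log2 changes from -0.10 to 0.23, and 0 of 5 had an unadjusted limma p under 0.05. TTK, the MPS1 kinase that starts checkpoint signalling, was at 1001 and 1039.8 on the shSOX11 arrays and at 861 and 881 on the shControl arrays, with a log2 change of 0.23 (SE 0.14, limma adjusted p = 0.659). BUB1, a checkpoint kinase, was at 5134 and 4658 against 4543 and 4498, and MAD2L1, the inhibitor of CDC20, at 4873 and 4756 against 4316 and 4665, with log2 changes of 0.11 and 0.10. BUB3, a checkpoint adaptor, was at 4812 and 4872 against 4999 and 5365 (-0.10), and BUB1B, BUBR1, was at -0.01. At the brightest probe sets of TTK, BUB1 and MAD2L1 both shSOX11 arrays were above both controls, and for BUB3 both were below. All 4 differences were within 2 standard errors of 0. Over all probe sets past the filter, BUB1 had 4 higher and 1 lower, and BUB3 had 2 higher and 4 lower. At 201456_s_at BUB3 was higher without overlap, with a log2 change of 0.49.

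Of the 7 spindle genes 4 had a higher mean, and ASPM alone had an unadjusted limma p under 0.05. ASPM, which focuses spindle poles, was at 2793 and 2853 on the shSOX11 arrays and at 2256 and 2277 on the shControl arrays (log2 change 0.32, SE 0.13, limma adjusted p = 0.584), and its other probe sets were at 0.79 and 0.20. NUSAP1, a microtubule-binding protein, was at 3913 and 3699 against 4412 and 4224 (-0.18, SE 0.13). Its second probe set went the other way, at 0.23. KIF11, the motor that separates spindle poles, had a log2 change of 0.002 (95% interval -0.35 to 0.36), and TPX2, which activates AURKA, of 0.06. KIF4A, a chromosome-bound kinesin, was at 0.08. KIF2C, a microtubule depolymerase, and HMMR, a spindle-pole protein, had log2 changes of -0.14 and -0.12, each with shSOX11.1 above both controls and shSOX11.3 below.

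**Figure D3:**
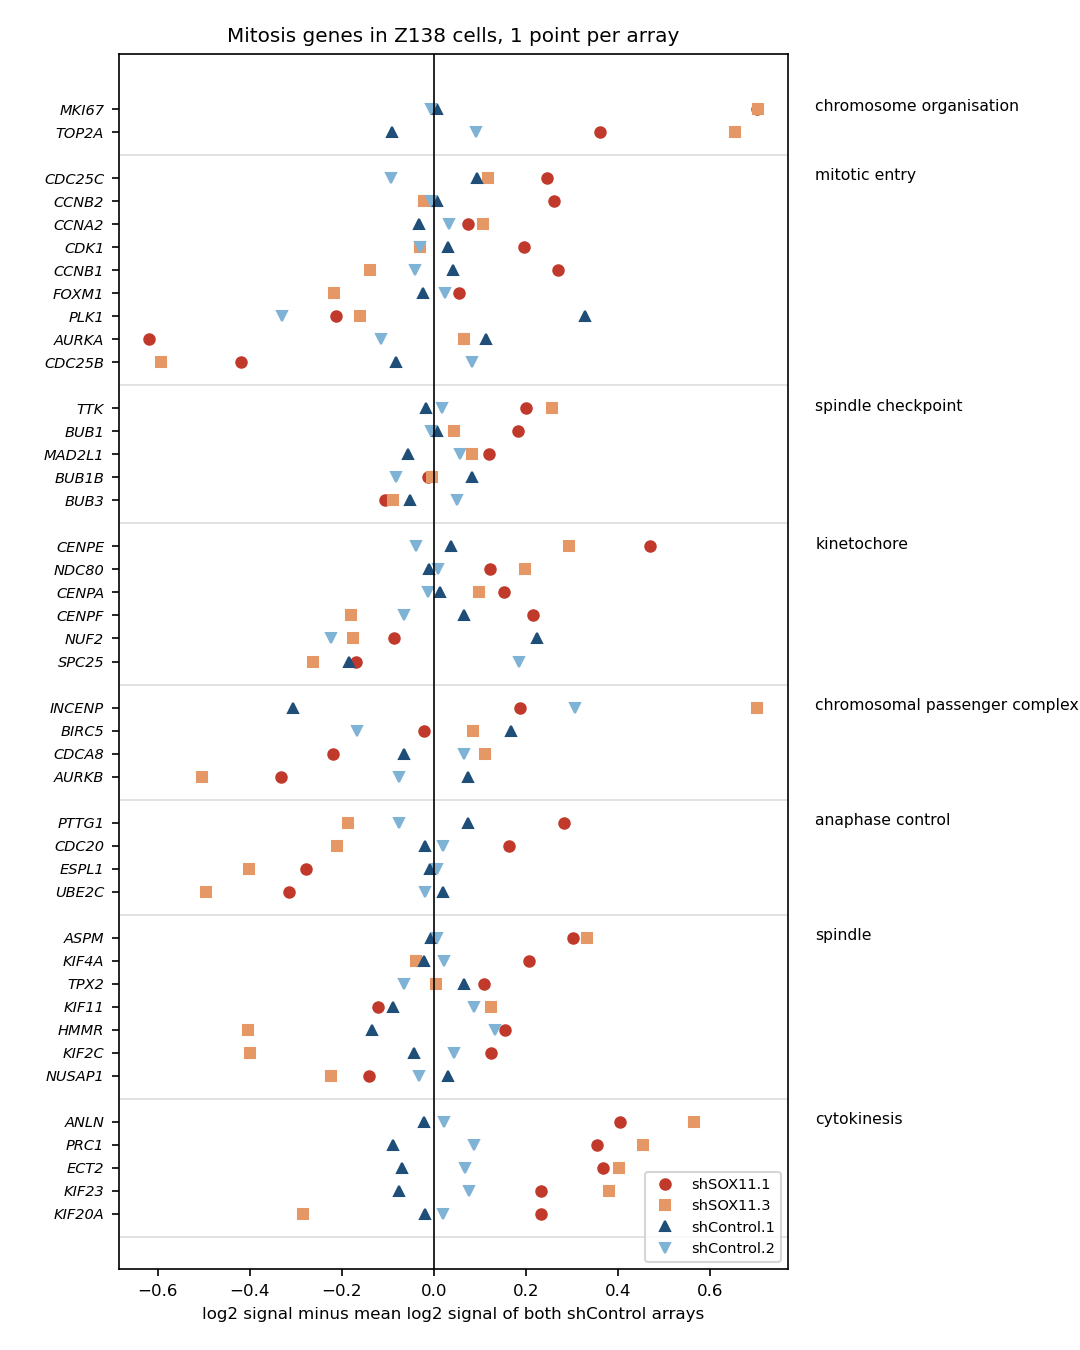
Log2 signal of each of the 42 genes minus the mean log2 signal of both shControl arrays, 1 point per array, grouped by role with the highest change at the top of each group. MKI67, TOP2A, ANLN, PRC1 and ECT2 have both shSOX11 points to the right of both shControl points, CDC25B, AURKB, UBE2C and ESPL1 have both to the left, and many others have the shSOX11 points apart.

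Each hairpin was then described on its own against the mean of both shControl arrays, with no test because each is 1 array, and with the control arrays shared by both descriptions. On shSOX11.1, 28 of the 42 genes were above the control mean and 14 below, with a median of 0.15, where the median of all genes tested was -0.004. On shSOX11.3, 21 were above and 21 below, with a median of 0.0003, where the median of all genes was -0.10. At the brightest SOX11 probe set the log2 change was -1.24 for shSOX11.1 and -1.23 for shSOX11.3, but the hairpins differed at the other SOX11 probe sets, with -1.18 for shSOX11.1 and -1.76 for shSOX11.3 at 204915_s_at and -1.36 and -0.92 at 204913_s_at. The typical distance between the shSOX11 arrays, the median absolute log2 difference, was 0.153 over the 42 genes, and 0.107 between the shControl arrays. Over all genes these distances were 0.297 and 0.175.

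Genes with more than 1 probe set past the filter showed how far a direction depends on the probe set. Of 85 probe sets of the 42 genes 82 passed, and 22 genes had more than 1. In 13 of the 22 genes all probe sets were on the same side of 0, and in 9 they were on both sides (BIRC5, BUB1, BUB3, CCNB1, CCNB2, CENPF, HMMR, KIF23 and NUSAP1). These counts use the mean of both hairpins. MKI67 is among the 13, though shSOX11.3 alone was below both controls at 212023_s_at (-0.15) and 212020_s_at (-0.12). The median log2 change was 0.05 over the 42 brightest probe sets and 0.14 over the 40 others. Among the 27 others with a mean signal of 100 or more, 19 were higher and 8 lower. Among the 13 dimmer ones 6 were higher and 7 lower. None of the 82 passed limma's adjusted p of 0.05 over 28202 probe sets, where 0.00355% did, and 13 were higher and 4 lower at an unadjusted limma p under 0.05, against 8.26% of all probe sets in either direction.

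**Figure D4:**
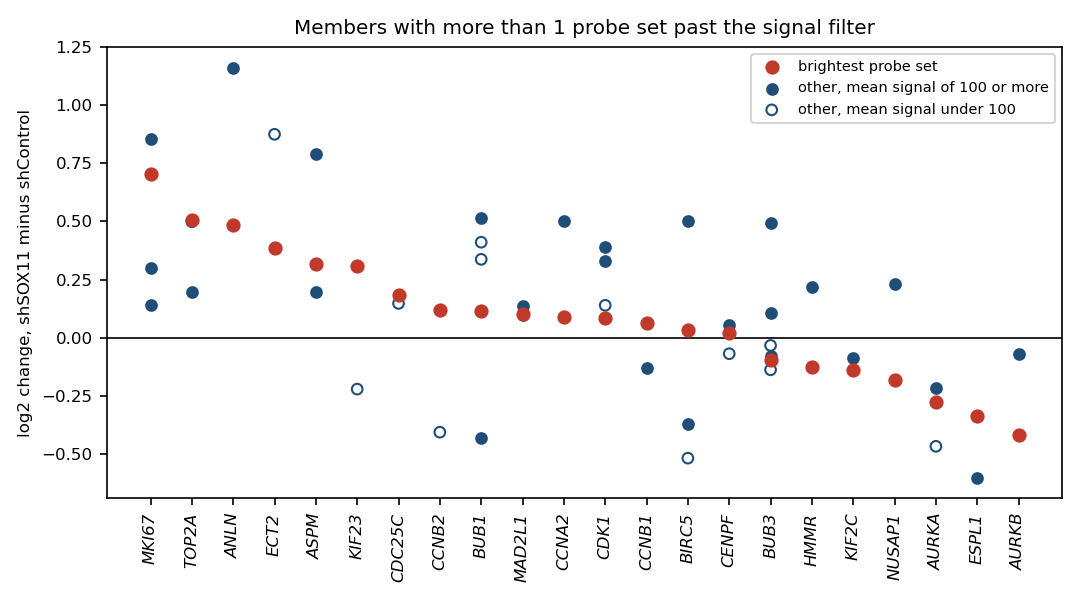
Log2 change (shSOX11 minus shControl, each the mean of its arrays) at every probe set past the signal filter. The 22 genes with more than 1 are shown, ordered by the brightest probe set. MKI67, TOP2A, ANLN, ECT2 and ASPM have all their points above 0 and ESPL1, AURKB, AURKA and KIF2C all below, while BIRC5 runs from -0.52 to 0.50.

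Other genes of mitosis were read from a list of 120, of which 116 were tested. Of these 52 had a higher and 64 a lower mean, the median log2 change was -0.03, and 11 (9.48%) had an unadjusted limma p under 0.05, 6 higher and 5 lower, against 8.38% of all genes. Without overlap between groups were 26 higher and 27 lower genes, or 22.4% and 23.3%, against 16.2% and 24.9% of all genes. None passed limma's adjusted p of 0.05. Condensin and cohesin genes were the group of this list with the largest share of higher means among groups of over 5. They had 12 of 17 higher, with a median of 0.13, where 5007 of all 11938 genes had a higher mean. The smaller cytokinesis group of this list had 3 of 4 higher, with a median of 0.25. The group of the anaphase-promoting complex took in regulators such as FZR1, UBE2S and FBXO5 as well as subunits. It had 11 of 16 tested genes lower, where 58.1% of all genes were, and a median of -0.07, against -0.06 over all genes. Of these 16 genes 0 had an unadjusted limma p under 0.05.

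The 4 higher genes of smallest p in this list were NEK2, KNTC1, NCAPD2 and CKAP2. NEK2, the kinase that splits centrosomes, was at 1996 and 2287 on the shSOX11 arrays and at 1489 and 1611 on the shControl arrays (log2 change 0.46, SE 0.15, limma adjusted p = 0.462). KNTC1, part of the complex that recruits dynein to kinetochores, was at 1042 and 1035 against 781 and 774 (0.42, SE 0.14). NCAPD2, a condensin subunit, was at 763 and 897 against 611 and 609 (0.44, SE 0.16). CKAP2, a spindle protein, was at 2146 and 1920.0 against 1508 and 1670.2 (0.36), but the mean over its probe sets was -0.21.

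The 4 lower genes of smallest p were PKMYT1, MYBL2, SPC24 and CENPM. PKMYT1, the kinase that restrains CDK1, was at 172 and 210.0 on the shSOX11 arrays and at 291 and 379 on the shControl arrays (log2 change -0.81, SE 0.21, limma adjusted p = 0.394). MYBL2, which works with the MuvB complex on mitotic promoters, was at 621 and 725 against 979.6 and 1029 (-0.58, SE 0.16, limma adjusted p = 0.394). SPC24, the partner of SPC25 in the NDC80 complex, was at 234 and 211 against 309 and 342 (-0.55, SE 0.17). CENPM, of the inner kinetochore, was at 823 and 659 against 1066 and 989.7 (-0.48, SE 0.17). In all 8 named genes of this list the groups did not overlap. They were picked for a small p on the same arrays, so the lack of overlap adds nothing to that p. In the promoter table TTTGAA was present before 29 of the 103 listed genes found (28.2%), a share between those of the 42 genes and of all genes.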

How the data were processed

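Values are MAS5 signal intensities on a linear scale, 1 per probe set and array, as the authors deposited them. Per the submitters' processing notes they come from Affymetrix Expression Console and MAS5. The program versions are not given in the sources used for this account, nor is the scaling target. Sample titles gave the groups. Log2 was taken with no pseudocount or further normalization. The array has 54675 probe sets: 62 controls, 41091 with a single gene symbol in the platform annotation, 1801 with several and 11721 with none. Only probe sets over a signal of 24.831 (the median over the table) on 2 or more arrays were tested, which left 28202 and, with the brightest per gene, 11938 genes. Since MAS5 subtracts mismatch signals, dim probe sets are noisy. The number of arrays limits the precision.

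The test of shSOX11 minus shControl was limma's (version 3.58.1, R 4.3.3, lmFit and eBayes with intensity trend, two-sided, 8.39 degrees of freedom after moderation), with Benjamini-Hochberg adjustment over all genes or probe sets at 0.05. The limma step was tested on simulated data. RefSeq promoters (GRCh38.p14) were searched over the 250 bases before the start. Genes were named by a rule: every one of the 42, all MKI67 probe sets, and of the wider list the 4 higher and 4 lower genes of smallest p. The genes, lists and rule were chosen with earlier results of these data known. The 14 alternatives tried were 2 normalizations, adding 32 before log2, 3 other signal filters (the 35th percentile, the 65th, or none), limma robust or without the trend, averaging a gene's probe sets, dropping those ending in _x_at, and leaving out each array.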

Additional observations from a re-analysis of the deposited data

How the results depend on the processing

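Of the 42 genes 21 kept their direction under every alternative that gave a value (13 for CENPA, 14 for the others), among them MKI67 (log2 change 0.50 to 0.79), TOP2A (0.36 to 0.65), ANLN (0.40 to 0.82), PRC1, ECT2, CENPE, ASPM, CDC25B, UBE2C, AURKB and ESPL1, and 21 changed sign at least once. For the genes named as keeping their direction, most alternatives could not have reversed it. The filters, the limma variants and dropping _x_at probe sets left their log2 changes as they were. Their groups did not overlap, so leaving out an array or adding a constant before log2 cannot turn the sign. Only the normalizations and the mean of probe sets could have done so. No gene of the 42 passed an adjusted p of 0.05 in limma under any alternative that used all 4 arrays. Without 1 array, limma called 0 to 5 of the 42 and 0 to 953 of all genes. The 5, without shSOX11.1, were MKI67, TOP2A, ANLN, CDC25B and UBE2C, and without shSOX11.3 limma called 1, MKI67, with 211 of all genes. SOX11 kept a log2 change of -1.23 to -1.24 there. Fits without a shSOX11 array take the error from the shControl pair, which lay closer together. Genes of the 42 under an unadjusted limma p of 0.05 numbered 3 without the trend and 1 to 14 with an array left out, against 11. They were 33.3% of the 42 without shSOX11.1 (24.9% of all genes) and without shSOX11.3 (15.4% of all genes), and 2.38% without either shControl array (2.84% and 3.05% of all genes). Genes of the 42 without overlap were 27 to 36 with an array left out, where fewer pairs must separate. No share of all genes is given for that comparison, and the shares for all 4 arrays do not apply to it. These counts therefore say nothing about the 42 genes in particular. The mean of probe sets left 0 genes 1.5-fold apart on all 4 pairs. Wider list genes under an unadjusted limma p of 0.05 were 17 with median centring, 3 without the trend, 19 with the mean of probe sets and 0 to 38 with an array left out, against 11. Shares of all genes under that p were 8.87% with median centring, 7.46% without the trend and 8.33% with the mean of probe sets. With an array left out the share of all genes ran from 2.84% to 24.9%. The wider list counts there thus cannot be read as a result for that list alone. The median log2 change of the 42 genes ran from 0.0003 without shSOX11.1 to 0.15 without shSOX11.3. Leaving out _x_at probe sets removed FOXM1, CENPA and PTTG1.

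Quantile normalization turned BUB1B to 0.015. Median centring turned BUB1B to 0.074, FOXM1 to 0.0021, CDCA8 to 0.029, CDC20 to 0.060 and KIF20A to 0.057. The mean of probe sets turned CCNB1 to -0.034, CCNB2 to -0.14, BUB3 to 0.042, BIRC5 to -0.090, NUSAP1 to 0.024, HMMR to 0.046 and CKAP2 to -0.21. With an array left out, the log2 change ranged from -0.62 to 0.065 for AURKA, -0.13 to 0.20 for BIRC5, -0.091 to 0.074 for BUB1B, -0.14 to 0.27 for CCNB1, -0.020 to 0.26 for CCNB2, -0.21 to 0.16 for CDC20, -0.22 to 0.11 for CDCA8, -0.031 to 0.20 for CDK1, -0.18 to 0.22 for CENPF, -0.22 to 0.055 for FOXM1, -0.40 to 0.15 for HMMR and -0.12 to 0.12 for KIF11. The same ranges were -0.28 to 0.23 for KIF20A, -0.40 to 0.12 for KIF2C, -0.039 to 0.21 for KIF4A, -0.35 to 0.092 for NUF2, -0.51 to 0.14 for PLK1, -0.19 to 0.28 for PTTG1 and -0.0078 to 0.12 for TPX2. For MKI67 they were -0.12 to 0.40 at 212020_s_at and -0.15 to 0.75 at 212023_s_at. Apart from the arrays left out, the probe sets averaged and the shifts of scale, the cause of these changes was not tested. No paired analysis was possible because the labels do not pair any shSOX11 array with a shControl array.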
